A study of Mus musculus with 8 samples.

Results

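The microRNA genes of the miR-200 and miR-183 families were followed in the olfactory mucosa of mice with a partial loss of Lhx2, a LIM-homeodomain transcription factor, from their olfactory sensory neurons (OSNs). Members were the transcript clusters of the array whose annotated symbols include Mir200b, Mir200a, Mir429, Mir200c, Mir141, Mir183, Mir96 or Mir182, which gave 8 clusters among the 23410 that carry a gene symbol. They were picked with their knockout and control values in view, so the difference between the groups is given for them as a description, without a test. Total RNA of the mucosa was hybridized to Affymetrix Mouse Gene 1.0 ST arrays, 1 array for each of 8 mice of a mixed 129 x C57BL/6J background, all at P26. The 4 knockouts were OmpCre:Lhx2(fl/fl), in which Cre sits in the locus of the olfactory marker protein gene Omp and is made by mature OSNs, so that other cells of the mucosa keep Lhx2. Recombination by this Cre is incomplete, and part of the mature OSNs keep Lhx2 too. Of the 4 controls, 3 were OmpCre:Lhx2(fl/+), with Cre and 1 floxed allele, and control replicate 1 was Lhx2(fl/+), with no Cre. Replicate numbers only name the mice. The first digit of the mouse numbers put 2 knockouts and 2 controls (replicates 1 and 2 of each) in number series 5, replicate 3 of each in series 7 and replicate 4 of each in series 9. What these digits stand for is not stated.

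A microRNA is cut from a hairpin within a longer primary transcript, and its seed, the bases near the 5′ end, pairs with target mRNAs and lowers their stability or translation. The miR-200 family is a hallmark of epithelia, where it represses the transcription factors Zeb1 and Zeb2. In zebrafish it is needed for olfactory progenitors to finish their differentiation. The miR-183 family is made together in sensory cells of the eye, ear and nose. Mutations in the seed of miR-96 cause hearing loss in mice and humans, and miR-182 is among the most abundant microRNAs of the retina. The array clusters are tied to the hairpin genes, and they do not tell primary transcript, hairpin and mature microRNA apart.

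The mature strands that are best known as the functional ones are shown because the seed, in capitals (bases 2 to 8), sets which members can share targets. They are 5′ to 3′, from RefSeq on GRCm38.p6, all on the minus strand, and all 8 members were matched.
miR-200b-3p (chr4:156055685-156055706): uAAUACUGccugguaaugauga
miR-429-3p (chr4:156053916-156053937): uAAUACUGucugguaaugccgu
miR-200c-3p (chr6:124718324-124718346): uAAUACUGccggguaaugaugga
miR-200a-3p (chr4:156054911-156054932): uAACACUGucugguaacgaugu
miR-141-3p (chr6:124717917-124717938): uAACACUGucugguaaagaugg
miR-183-5p (chr6:30169711-30169732): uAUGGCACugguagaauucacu
miR-96-5p (chr6:30169506-30169528): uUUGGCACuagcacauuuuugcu
miR-182-5p (chr6:30165962-30165986): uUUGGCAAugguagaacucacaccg
Seed AAUACUG is held by miR-200b, miR-429 and miR-200c and by no other of the 1679 mature mouse microRNAs in the RefSeq table. Seed AACACUG, which differs from it at a single base, is held by miR-200a and miR-141 alone. The miR-183 family has 3 related seeds, and that of miR-96 is also found in miR-1271-5p.

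The 8 genes lie in 3 tight loci, each read from the minus strand. Mir200b, Mir200a and Mir429 follow one another within 1.85 kb of chromosome 4, Mir200c and Mir141 within 0.48 kb of chromosome 6, and Mir183, Mir96 and Mir182 within 3.82 kb elsewhere on chromosome 6. Both seeds of the miR-200 family are therefore made from both of its loci.

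All 8 clusters averaged lower in knockouts than in controls as deposited, and Mir200c and Mir141 averaged higher once arrays were centred on markers of mature OSNs. The Mir200b-Mir200a-Mir429 locus differed by −0.54 to −1.23 on the log2 scale, the Mir183-Mir96-Mir182 locus by −0.62 to −1.09, and the Mir200c-Mir141 locus by −0.22 to −0.33. In 5 of the 8 clusters every knockout lay below every control, where 7.83% of all named clusters did so and 8.39% were called by limma in either direction at an adjusted p under 0.05, but the members were chosen on this contrast and nothing is read from the comparison. Values below are log2 array signals, in the order of replicates 1 to 4. Because the sample is a whole tissue, fewer cells of a type and less RNA per cell cannot be told apart.

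**Figure D1:**
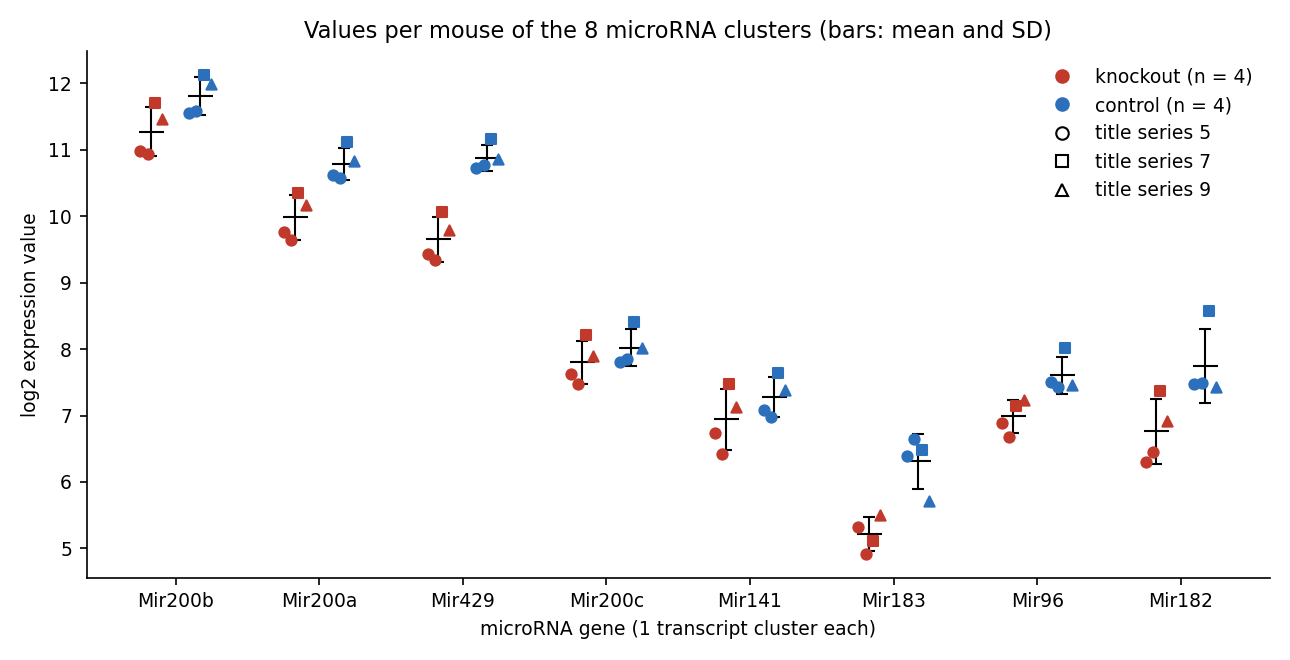
Log2 array signal (vertical axis) of each of the 8 member clusters (horizontal axis) in single mice, with 4 knockouts left of 4 controls for every cluster, bars at the mean and SD, and a point shape for each number series. The groups are apart for Mir200a, Mir429, Mir183, Mir96 and Mir182, and they overlap for Mir200b, Mir200c and Mir141.

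Mir429 had the largest difference. This last hairpin of the chromosome 4 locus, which carries the AAUACUG seed, had log2 signals of 9.43, 9.33, 10.06 and 9.79 in knockouts, against 10.73, 10.78, 11.17 and 10.86 in controls. The groups did not overlap and were 0.67 apart at their nearest arrays. Means were 9.65 ± 0.34 in knockouts and 10.88 ± 0.20 in controls (SD, n = 4 each), a knockout minus control difference of −1.23 ± 0.16 (SE), or 57.4% less signal. For every member the SE of the difference is that of the limma fit, which draws part of its variance from all clusters. From the values of the member alone the SE was 0.19 for Mir429 and 0.19 (Mir96) to 0.37 (Mir182) over the 8 members. The cluster is also annotated to Gm13648, the long noncoding host transcript of the locus, so this value covers both genes.

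Mir200a, the middle hairpin, showed the same order of groups with a smaller gap. Its log2 signals were 9.76, 9.65, 10.36 and 10.16 in knockouts, against 10.63, 10.58, 11.11 and 10.83 in controls. The 4 knockouts lay below the 4 controls. The averages of 9.98 ± 0.33 in knockouts and 10.79 ± 0.24 in controls differed by −0.81 ± 0.17, or 42.8% less signal. Mir200b, the first hairpin, had 10.99, 10.94, 11.71 and 11.46 in knockouts, against 11.55, 11.58, 12.13 and 11.99 in controls. Here the groups overlapped, because knockout replicate 3 was above control replicates 1 and 2. Mir200b averaged 11.27 ± 0.37 in knockouts and 11.81 ± 0.29 in controls, a difference of −0.54 ± 0.19, or 31.1% less signal.

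The second miR-200 locus had the smallest differences of the 3 loci. Mir200c, which has the same seed as Mir429, gave 7.62, 7.48, 8.21 and 7.89 in knockouts, against 7.80, 7.86, 8.41 and 8.01 in controls. Knockout replicates 3 and 4 were within the range of the controls. The means, 7.80 ± 0.32 in knockouts and 8.02 ± 0.28 in controls, differed by −0.22 ± 0.17, or 14.1% less signal. Mir141, whose seed is that of miR-200a, gave 6.73, 6.42, 7.48 and 7.13 in knockouts, against 7.08, 6.98, 7.64 and 7.39 in controls. Again 2 knockouts were inside the control range. Mir141 averaged 6.94 ± 0.46 in knockouts and 7.27 ± 0.30 in controls, a difference of −0.33 ± 0.22. Without control replicate 3 the difference was −0.09 for Mir200c and −0.21 for Mir141, and without knockout replicate 3 it was −0.36 and −0.51, so the size of these small values varied with single mice.

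Mir429 and Mir200c are the members with the same seed and the most unlike differences, and their RefSeq hairpins (GRCm38.p6, minus strand) are set out with the mature 3p strand in capitals. Aligned, they were the same at 60.5% of positions, with a longest shared run of 10 bases.
Mir429 (chr4:156053905-156053987): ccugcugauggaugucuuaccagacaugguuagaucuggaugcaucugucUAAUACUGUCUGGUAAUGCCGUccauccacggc
Mir200c (chr6:124718322-124718390): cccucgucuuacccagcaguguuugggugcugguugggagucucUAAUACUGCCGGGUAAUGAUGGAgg
Over all pairs of miR-200 family hairpins, aligned identity was 54.8% to 68.4%. The longest run of identical bases was 17, between Mir200a and Mir141, then 14, between Mir200b and Mir200c, which lie in different loci and had differences of −0.54 and −0.22. The labels do not say which bases the probes match, and probes shared between members were not tested.

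The miR-183 family was also lower. Mir183, the first hairpin of that locus, had 5.33, 4.92, 5.12 and 5.51 in knockouts, against 6.39, 6.65, 6.48 and 5.72 in controls. The groups were apart, but control replicate 4 was well below the other controls. Means were 5.22 ± 0.26 in knockouts and 6.31 ± 0.41 in controls (SD, n = 4 each), a difference of −1.09 ± 0.20, or 53.0% less signal, and −1.29 without control replicate 4. Its signal was near the bottom of the array, with only 10.3% of named clusters dimmer, where a log2 difference tends to understate a change in RNA. Mir96 had 6.89, 6.68, 7.14 and 7.23 in knockouts, against 7.50, 7.43, 8.01 and 7.47 in controls. All knockouts lay under all controls, by 0.19 at the nearest. Mir96 averaged 6.99 ± 0.25 in knockouts and 7.60 ± 0.27 in controls, a difference of −0.62 ± 0.15.

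Mir182, the last hairpin of the locus, had the widest spread of the 8 members. Its signals were 6.30, 6.45, 7.37 and 6.92 in knockouts, against 7.47, 7.50, 8.57 and 7.44 in controls. Knockout replicate 3 came within 0.065 of the lowest control, and control replicate 3 stood far over the other controls. The averages, 6.76 ± 0.49 in knockouts and 7.74 ± 0.55 in controls, differed by −0.98 ± 0.29, or 49.4% less signal, and by −0.71 without control replicate 3.

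Members of the chromosome 4 locus differed from one another within each mouse. The difference between 2 clusters on the same array takes out whatever moves a whole array alike. Compression of very low or very high array signals can still change its size, and Mir200b had the highest signals of the 3 clusters, a part that was not tested. Mir200b minus Mir429 was 1.56 to 1.67 in knockouts, against 0.81 to 1.13 in controls, a shift of 0.69 ± 0.08 (SE, n = 4 each). The SE of a shift comes from the values of that pair alone, unlike the limma SE given for members. Mir200a minus Mir429 was 0.29 to 0.38 in knockouts, against −0.20 to −0.03 in controls, a shift of 0.43 ± 0.04. Mir200b minus Mir200a was 1.23 to 1.35 in knockouts, against 0.92 to 1.16 in controls, a shift of 0.27 ± 0.05. None of these 3 pairs overlapped between groups. They are built from the values on which the members were chosen, and the share of other cluster pairs that do so was not computed, so nothing is read from it. The 3 pairs are not independent, because any 2 of them give the other. Those with Mir429 also rest on a cluster that covers Gm13648. On the log2 scale the difference was smallest at the first hairpin and largest at the last. At the second locus the first hairpin also had the smaller difference, but Mir200c minus Mir141 was 0.73 to 1.06 in knockouts and 0.62 to 0.88 in controls, a shift of 0.11 ± 0.09 with overlapping groups. The 3 pairs of the Mir183 locus overlapped too.

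**Figure D2:**
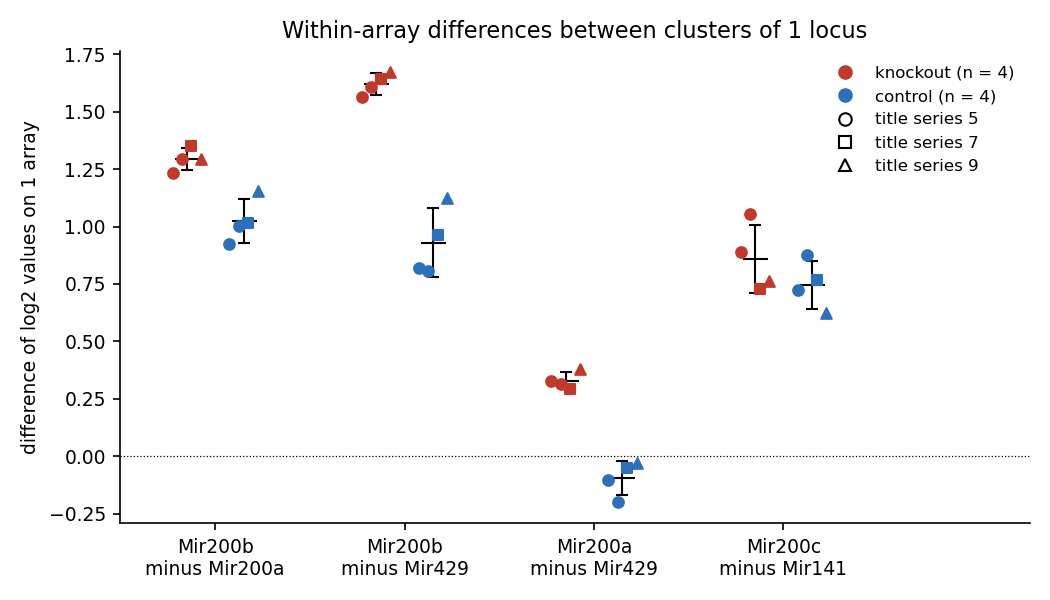
Within-array log2 difference (vertical axis) between clusters of 1 locus, for each mouse, knockouts left of controls, with bars at the mean and SD and a point shape for each number series. The 3 pairs from Mir200b, Mir200a and Mir429 are apart between groups, and Mir200c minus Mir141 overlaps.

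Differences had the same sign in every number series. All 8 members were lower in knockouts in series 5 (2 mice against 2), series 7 (1 against 1) and series 9 (1 against 1). The members were chosen on the values of these same mice. The share of all named clusters with the same sign in every series was not computed, so nothing is read from it. In the order of series 5, 7 and 9, Mir429 differed by −1.37, −1.10 and −1.07, Mir200a by −0.90, −0.76 and −0.67 and Mir200b by −0.60, −0.42 and −0.53. The 3 genes kept their order in each series. The miR-183 family was less even, with −1.40, −1.37 and −0.21 for Mir183, −0.68, −0.87 and −0.23 for Mir96 and −1.11, −1.20 and −0.52 for Mir182. The smallest difference of all 3 genes was thus in series 9. There the control (replicate 4) was the lowest control for Mir183 and Mir182, and the knockout (replicate 4) was the highest knockout for Mir183 and Mir96. Over the 8 members, the mean difference was −0.85, −0.76 and −0.45 in series 5, 7 and 9.

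Within a mouse the members deviated together from the group mean. Knockout replicate 3 was above the knockout mean for 7 of the 8 members, by 0.35 on average, and knockout replicate 4 for all 8, by 0.18. Knockout replicate 2 was below it for all 8, by −0.34, and knockout replicate 1 for 7, by −0.20. Among controls, replicate 3 was above the control mean for all 8 members, by 0.39 on average, and the averages of the others were −0.09 to −0.16. Both mice of series 7 were thus high in their group. The mean of the mature OSN markers moved far less, by −0.04 to 0.04 about its group means, but it averages 21 genes. Single markers had SDs within a group from 0.008 (Cnga2, controls) to 0.26 (Omp, controls). For Omp the controls mix mice with and without Cre, which sits in the Omp locus.

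**Figure D3:**
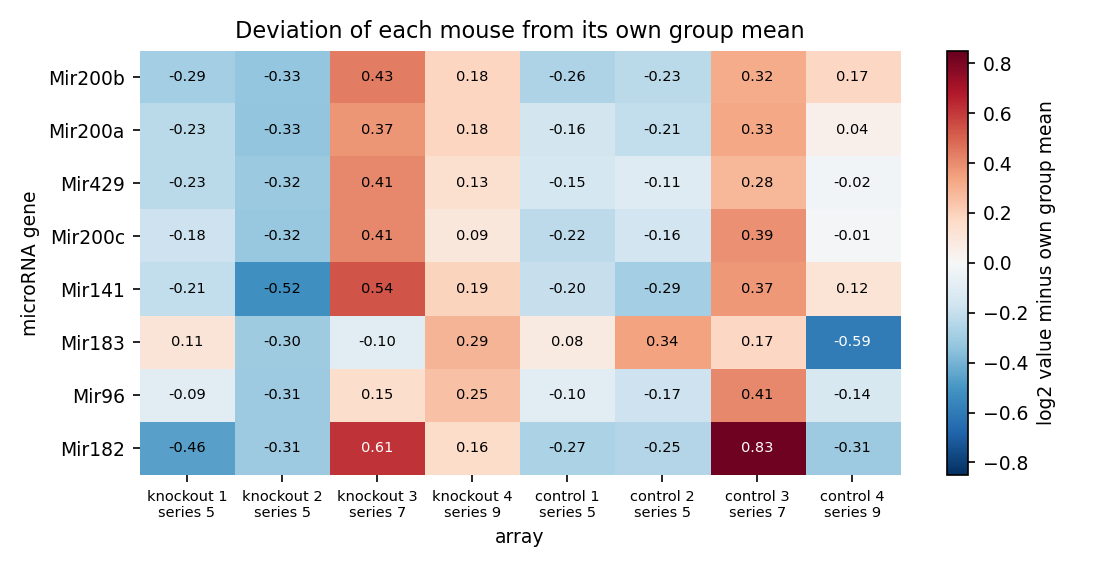
Deviation of each member cluster from the mean of its own group (colour and number, log2 units), with mice across, knockouts left of controls, and members down. The column of control replicate 3 is positive throughout and that of knockout replicate 2 negative throughout, and Mir183 breaks the pattern in several mice.

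These deviations set the members of the miR-200 family close to each other. Over the 8 arrays, Pearson's r between their deviations was 0.95 to 0.99 for the 10 pairs of the family, whether or not the pair shared a locus. Within the Mir183 locus r was 0.88 for Mir96 with Mir182, 0.42 for Mir183 with Mir96 and 0.23 for Mir183 with Mir182. Mir182 followed the miR-200 family (r of 0.83 to 0.93), and Mir183 did not (r of −0.10 to 0.15). Points share their arrays, so anything that moves an array moves all of them. With the number series as a block, which takes up most of this movement, the SE of the difference fell to 0.07 for Mir429, 0.06 for Mir200a and 0.05 for Mir200b, against 0.16, 0.17 and 0.19 without it. For Mir183 it did not fall, at 0.21 against 0.20. Series 7 and series 9 hold 1 knockout and 1 control each, and what the series stand for is not stated. The members were chosen on this contrast, so these SEs are a description and no test is read from them.

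The same movement reached well beyond the members. Of 21782 single-symbol clusters outside them, 606 had an r over 0.9 with the mean of the members and 182 an r over 0.95. The 5 most alike were Mcts2 (r = 0.996), Leng8 (0.994), Lsm6 (0.993), the microRNA gene Mir151 (0.993) and Zmym6 (0.991), over 8 arrays. None of the 5 passed the test between groups: their knockout minus control differences were −0.03 to 0.15, with adjusted p of 0.757 to 0.936 (limma, Benjamini-Hochberg over 23410 clusters). What they have in common with the members is the order of mice inside a group. The difference between groups was not part of the measure.

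No other microRNA cluster was called lower without a block, and Mir138-2 was with the number series as a block. Besides the members, 351 clusters carry a microRNA symbol, 291 of them with no other symbol. Their median difference was 0.07, against 0.05 over all named clusters, and 90 of the 351 were below 0. Clusters annotated to several Mir669 genes repeat the same values, with a difference of −0.05, and so do those of Mir467, at −0.01. Both counts therefore hold repeated values, and the 351 clusters are not all separate measurements. None was called lower and 1 higher at an adjusted p under 0.05 (limma), 0.285% of these clusters, where 6.29% of all named clusters were called lower and 2.1% higher. Before adjustment, 1 was lower and 12 were higher at p under 0.05, and the test used in the methods called none after adjustment. The 351 clusters were mostly dim, with a median log2 signal of 6.05, against 8.50 over all named clusters. Only 28 of them passed the filter on dim clusters. The part of low signal in their small share of calls was not tested. The called cluster was Mir26a-1, a widely expressed microRNA gene, with 6.21, 6.40, 6.36 and 6.23 in knockouts, against 5.95, 6.12, 6.08 and 5.96 in controls. The groups were apart and differed by 0.27 ± 0.07 (SE, adjusted p = 0.0458), but the call was lost without 7 of the 8 arrays in turn, all but control replicate 2 (adjusted p of 0.0502 to 0.182 over all settings that lost it).

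Across these clusters the lowest difference was −0.40, for Mir138-2, a neuronal microRNA gene (adjusted p = 0.107, and 0.00535 with the number series as a block, limma). Of the 8 members, 6 had a more negative difference than that, and Mir141 and Mir200c did not. Of a list of 25 neuronal and epithelial microRNA genes outside the members, 20 were measured and none passed the test, with a median of 0.07 and an unadjusted p under 0.05 for 1 lower and 1 higher gene. Its brightest genes were Mir7-1, with a difference of 0.02, and Mir138-2. As the members were chosen on this contrast, their place at the low end describes the choice.

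**Figure D4:**
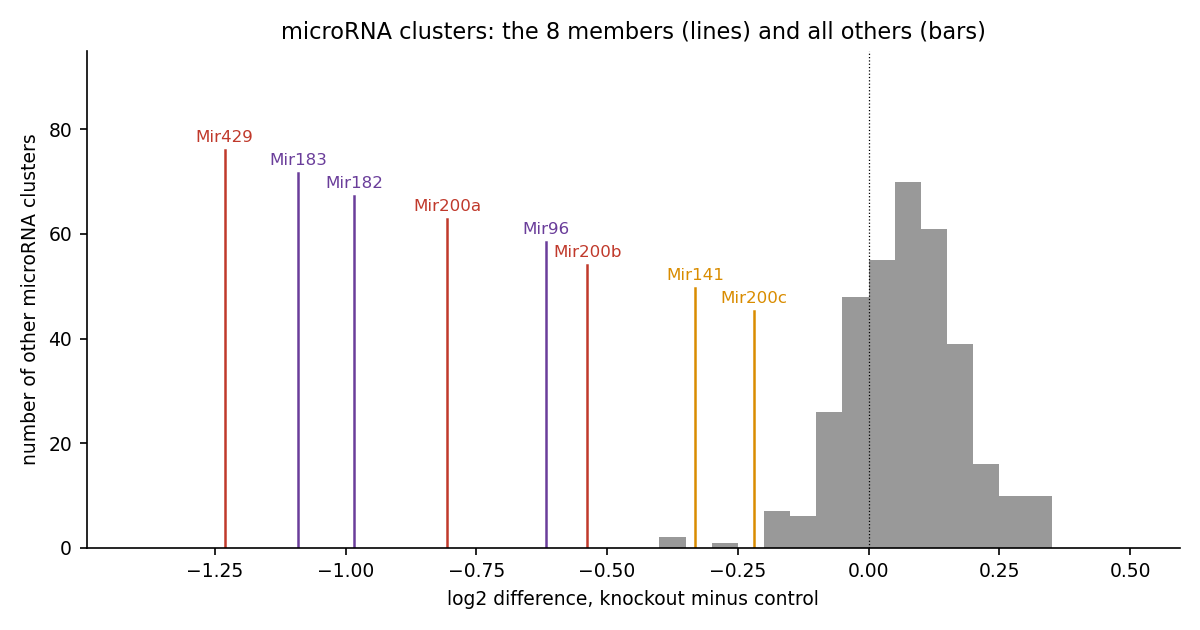
Number of other microRNA clusters (vertical axis) by knockout minus control log2 difference (horizontal axis), with lines at the 8 members, coloured by locus, whose heights have no meaning. The 351 others run from −0.40 to 0.35 around a median of 0.07, and 6 members lie left of all of them.

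Genes beside the 3 loci were compared next, to see whether a wider stretch of chromosome was lower. Of the nearest 3 measured genes on each side, 18 in all, 1 was called lower and none higher (limma), and their differences were −0.30 to 0.24, with a median of 0.07. Around Mir200b, Mir200a and Mir429 they were Ttll10 (0.06), Gm16008 (0.14) and Tnfrsf18 (0.07) on one side and 9430015G10Rik (0.12), Rnf223 (0.11) and Agrn (0.24) on the other. Agrn, the proteoglycan that organizes neuromuscular synapses, did not pass the test (adjusted p = 0.434). Around Mir200c and Mir141 they were Phb2 (0.09), Emg1 (0.01), Lpcat3 (0.09), Ptpn6 (0.11), Grcc10 (0.01) and Atn1 (0.18). No measured neighbour of either miR-200 locus passed the test.

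The called neighbour was at the miR-183 locus. Smkr-ps had 7.59, 7.51, 7.65 and 7.62 in knockouts, against 7.98, 7.93, 7.83 and 7.82 in controls. All knockouts were under all controls, and the difference was −0.30 ± 0.06 (adjusted p = 0.0145, limma). The call was lost without knockout replicate 2 (adjusted p = 0.0545) or control replicate 1 (0.0581). The other neighbours there, Nrf1 (−0.13), a regulator of genes for mitochondrial respiration, Strip2 (0.00), Ube2h (0.06), Zc3hc1 (0.05) and Klhdc10 (0.07), did not pass the test. Gm13648 and Mirc35hg, transcripts that overlap the miR-200 and miR-183 loci in RefSeq, have no single-symbol cluster of their own.

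**Figure D5:**
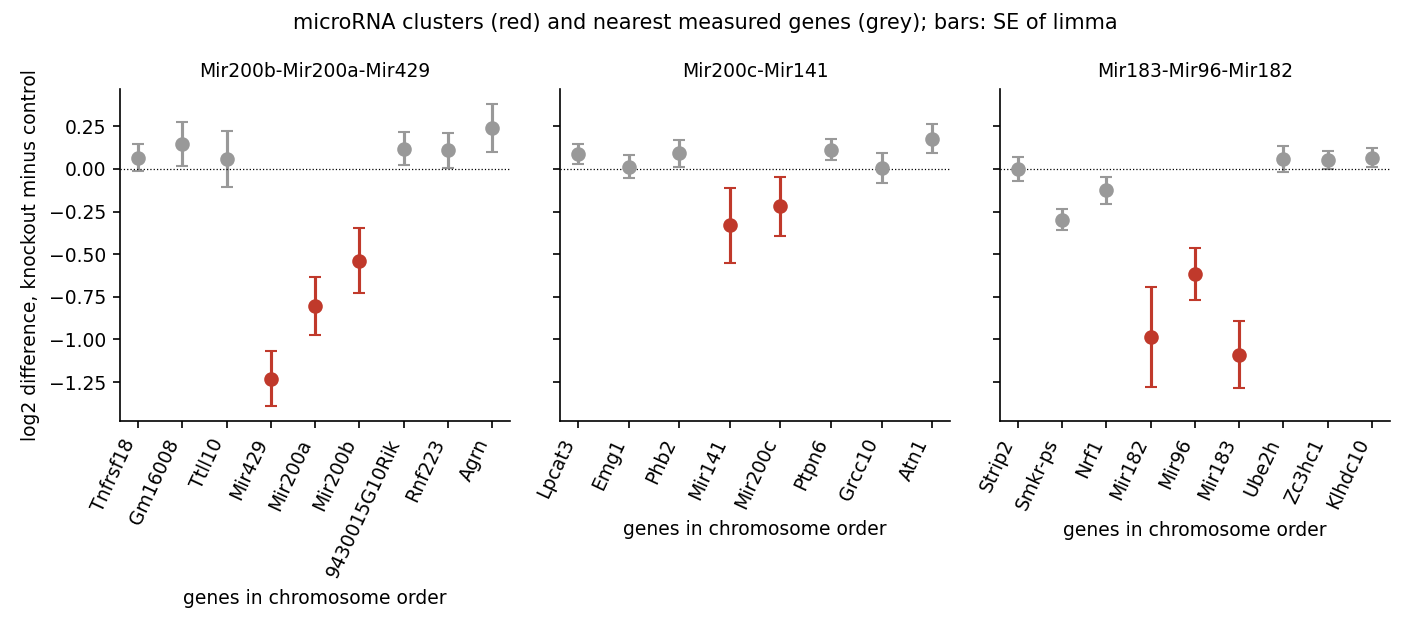
Knockout minus control log2 difference (with the SE of the limma fit) of the members and of the 3 nearest measured genes on each side, in gene order along each locus. Distances are not to scale. Members lie at −0.22 to −1.23 and neighbours at −0.30 to 0.24.

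The 300 bases around the start of Gm13648 are printed because it is the host transcript of Mir200b, Mir200a and Mir429. The stretch runs from 250 bases before the start to 50 after it, 5′ to 3′ on the minus strand, from RefSeq on GRCm38.p6, and the capitals mark motif matches.
Gm13648 promoter (chr4:156059753-156060052): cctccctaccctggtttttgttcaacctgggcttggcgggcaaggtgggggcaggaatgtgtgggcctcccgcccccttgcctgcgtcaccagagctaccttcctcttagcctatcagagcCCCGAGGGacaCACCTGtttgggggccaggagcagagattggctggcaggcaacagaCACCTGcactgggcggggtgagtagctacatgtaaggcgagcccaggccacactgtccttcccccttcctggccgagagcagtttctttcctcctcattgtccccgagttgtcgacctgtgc
Letters TAATTA and TAATTG, homeodomain core motifs of the kind LIM-homeodomain factors bind, were searched on both strands and had no match. They were found in 5.29% and 8.0% of the 32851 promoters of the same length. CCCNNGGG, the core of the Olf/Ebf palindrome, matched once, 129 bases before the start, and is in 13.7% of promoters. CACCTG, an E-box that Zeb factors bind, matched 118 and 72 bases before the start and is in 20.2% of promoters, and CAGGTA, another such E-box, had no match and is in 11.96%. Each share counts promoters with any match to the letters, and the share with 2 CACCTG matches was not computed. These matches describe letters in this window only.

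Targets of the 2 families, as known from work in other tissues, mostly did not pass the test. Of 15 measured miR-200 family targets, 1 was higher and none lower (limma, adjusted p under 0.05), with a median difference of 0.04, and before adjustment 1 was lower and 2 were higher at p under 0.05. The gene called higher was Tubb3, the neuronal beta-tubulin that also marks immature OSNs, with a difference of 0.41 ± 0.06 (adjusted p = 0.00076). The classical targets, named here after their values were seen, did not pass: Zeb1 differed by 0.15 ± 0.07 (adjusted p = 0.287) and Zeb2 by 0.04 ± 0.12 (adjusted p = 0.909). Of 20 miR-183 family targets, 1 was lower and none higher, with a median of 0.01, and before adjustment 5 were lower and none higher at p under 0.05. The one called was Psen2, a catalytic subunit of gamma-secretase, at −0.49 ± 0.08 (adjusted p = 0.0024).

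The machinery that makes and uses microRNAs had no gene that passed the test. Of its 20 genes, from Drosha and Dgcr8, which cut the primary transcript, to Dicer1 and the Argonautes, none was called (limma), with a median of 0.01 and a range of −0.21 to 0.17, and before adjustment 1 was lower and none higher at p under 0.05. The brightest, Ddx5 and Ddx17, helicases of the Drosha complex, differed by −0.06 and 0.03. Of 18 regulators of the miR-200 genes and epithelial genes, none was called and 1 was higher at an unadjusted p under 0.05, with a median of 0.05. Its brightest were the keratin Krt8 (0.07) and vimentin, Vim (0.11).

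Markers of the cells were read beside the members. Lhx2 had 12.03, 11.99, 12.17 and 12.16 in knockouts, against 12.39, 12.33, 12.29 and 12.33 in controls, a difference of −0.25 ± 0.06, or 16.0% less signal (adjusted p = 0.0383, limma). All knockouts were below all controls, though the call was lost without any single array but knockout replicate 3 (adjusted p of 0.0566 to 0.130). Omp differed by −0.84 ± 0.15 (adjusted p = 0.0057). Cre sits in the Omp locus, and for Omp the control without Cre had 13.78, against a mean of 13.35 in the controls with Cre. The part of the Cre insertion in the Omp difference was not tested. Of 21 measured mature OSN markers, 16 were lower and none higher. Cnga4 (−2.02), Gng13 (−0.999), Ric8b (−0.53) and Cnga2 (−0.49), all parts of odor transduction, had the smallest p. The mean of the list was 11.78 to 11.86 in knockouts, against 12.30 to 12.33 in controls, a difference of −0.50. Next to that mean, the members differed by −0.73 (Mir429), −0.59 (Mir183), −0.49 (Mir182), −0.31 (Mir200a), −0.12 (Mir96), −0.04 (Mir200b), 0.17 (Mir141) and 0.28 (Mir200c). The part of the mature OSN markers in the members' lower signal was not tested.

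Few markers of other cells passed the test. Of 11 sustentacular markers none was called, with Cyp2g1 at 0.04 and Gpx6 at −0.00, and the list mean was 12.53 to 12.62 in knockouts and 12.48 to 12.56 in controls. Of 14 immature OSN markers, Stmn4 was lower (−0.59) and Tubb3 higher, and of 15 markers of glands and respiratory epithelium, the cilia genes Tekt1 (−0.43) and Foxj1 (−0.42) were lower. The calls of Stmn4 and Foxj1 were lost without 4 and 6 of the 8 arrays in turn. All 9 cell division genes averaged higher in knockouts, by 0.08 to 0.38, with a median of 0.18. Only Cenpe (0.38) passed the test, a call lost without 6 of the 8 arrays in turn. None was called of 11 basal cell and progenitor markers, which differed by 0.00 to 0.20 (Neurod1 0.13, Sox2 0.00). Nor was any of 12 macrophage markers (Lyz2 0.05, Csf1r −0.10) or 2 blood markers (Alas2 and Slc4a1, median 0.12).

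The control without Cre lay within the range of the other controls for 5 members and was the lowest control for Mir200b, Mir429 and Mir200c. For Mir200b it had 11.55, against a mean of 11.90 in the 3 controls with Cre, for Mir429 10.73 against 10.93, for Mir182 7.47 against 7.83 and for Mir183 6.39 against 6.28. With 1 such mouse the effect of Cre alone could not be tested.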

How the data were processed

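Total RNA of dissected olfactory mucosa was hybridized to Mouse Gene 1.0 ST arrays, 1 for each of 4 knockout and 4 control mice. The deposited values are log2 signals for 35557 transcript clusters, which the authors made with Affymetrix Expression Console from equal amounts of RNA. Neither its version nor its background correction or normalization is stated. The study then rescaled values to a far larger published set of mRNAs specific to mature OSNs, and that step was not taken here. The alternative named mature OSN centring used the mean of 21 listed markers, which differed by −0.50. That is a larger shift than the study reported for its own set, so it does not stand for the study's normalization. No column stayed without a sample (0). Arrays have no read depth, and their number limits the precision.

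Clusters were named from the platform annotation, updated through Entrez ID (21698 of 21789 single-symbol clusters matched), and 23410 with a symbol were tested. Groups were compared with limma 3.58.1 in R 4.3.3 (lmFit and eBayes, two-sided, Benjamini-Hochberg, adjusted p under 0.05, no covariate), and the code was checked on simulated data. A gene named in a list or beside a locus came from its only cluster or the one with the highest mean. Where p-values are given they set the difference between groups against the spread between mice, which limma estimates in part from all clusters.

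The members and all lists were chosen with earlier results of these data known, so no p is given for members. Named were all members, from each list up to 4 called genes by smallest p or else its 2 brightest, the 3 nearest measured genes on each side of a locus, any called microRNA cluster (up to 5), the 5 clusters most alike in deviations, Lhx2 and Omp. Alternatives were median, quantile and mature OSN centring, the number series as a block, array weights, a filter on dim clusters, adding clusters without a symbol, the methods' t-test (equal variances) and leaving out each array. Hairpins were aligned with Biopython 1.88.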

Additional observations from a re-analysis of the deposited data

Results flagged for a closer look

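Control replicate 3 stood apart from the other controls for several members, by the gap to its nearest neighbour as a share of the range of the 4 values. For Mir182 it had a log2 signal of 8.57, against 7.44 to 7.50 in the other controls (a share of 0.948). For Mir96 it had 8.01, against 7.43 to 7.50 (0.870), and for the mean of all 8 members 9.19, against 8.64 to 8.71 (0.876). Chance alone passes the limit of 0.829 in about 1 of 20 groups, and 28 groups of 4 were examined. The same mouse was the highest control for every member but Mir183. Without it the difference between knockouts and controls was −0.71 for Mir182 and −0.48 for Mir96, against −0.98 and −0.62 with it.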

How the results depend on the processing

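All 8 members kept a negative difference under median centring, quantile normalization, the number series as a block, array weights and with each array left out. Their mean difference of −0.73 ran from −0.84 to −0.60 as each array was left out. Centring on the mature OSN list, which is itself lower in knockouts, put the median difference of all named clusters at 0.54, against 0.05 as deposited, and brought the mean of the members to −0.23, with Mir200c at 0.28 and Mir141 at 0.17. By the same construction it turned Ddx5 (0.43), Psen2 (0.011), Cnga2 (0.010), Gpx6 (0.49), Tekt1 (0.066), Foxj1 (0.077), Csf1r (0.39), Nrf1 (0.37), Smkr-ps (0.20), Zmym6 (0.47) and Lhx2 (0.25) positive. The list mean differed by −0.50, so Mir138-2, at −0.40 as deposited, also turned positive. The number of members whose knockouts all lay below the controls (5), recomputed as an alternative chosen after seeing the data, was 4 with median centring, 1 with mature OSN centring and 5 to 6 with an array left out.

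Over all named clusters, 1965 were called (1473 lower, 492 higher). The count was 22398 with mature OSN centring (879 lower, 21519 higher) and 1092 without dim clusters, where fewer were tested (760 lower, 332 higher). The split was 1342 lower and 1028 higher with median centring, 1478 and 712 with quantile normalization, 1715 and 975 with the series block, and 1728 and 1086 with array weights. Leaving out an array gave 1609 to 1949.

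Of other microRNA clusters, 1 was called, against 2 with median centring, 344 with mature OSN centring, 10 with the series block (1 lower, 9 higher), 7 with array weights, 0 without dim clusters, 0 with unnamed clusters added, 0 by the methods' t-test and 0 to 3 with an array left out. Among miR-200 targets (1 called) the counts were 2 with median centring, 15 with mature OSN centring, 2 with array weights and 1 with any array left out. Among miR-183 targets (1 called) they were 17 with mature OSN centring, 2 with the block, 3 with weights and 1 with any array left out. Of processing genes (0 called) they were 20 with mature OSN centring and 1 each with the block and weights, and of regulators and epithelial genes (0 called) 18 with mature OSN centring, with 0 for both when an array was left out. Of neighbours (1 called) they were 18 with mature OSN centring, 0 without dim clusters and 0 to 1 with an array left out. Apart from that centring and the filters, the cause of these changes was not tested. Replicate numbers only name the mice and pair none of them, so the number series, each with knockouts and controls, was the only block used.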

Other observations

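Members of 1 seed had unlike differences between knockouts and controls. Those with the AAUACUG seed were at −1.23 (Mir429), −0.54 (Mir200b) and −0.22 (Mir200c), and those with the AACACUG seed at −0.81 (Mir200a) and −0.33 (Mir141), so in each seed group the gene of the chromosome 6 locus had the smaller difference. By locus, the mean differences were −0.86 for Mir200b, Mir200a and Mir429, −0.28 for Mir200c and Mir141 and −0.90 for Mir183, Mir96 and Mir182. Mir190a was the other microRNA cluster whose knockouts all lay below the controls, at signals near the bottom of the array (2.93 to 2.97 in knockouts, against 2.99 to 3.15 in controls, adjusted p = 0.382 by limma).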
